A study of Caenorhabditis elegans with 96 samples.

Results

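QX501, QX505 and QX518 are recombinant inbred lines of the nematode Caenorhabditis elegans, and they were singled out because their RNA held over 100 read counts of plg-1, the gene for the main protein of the male mating plug. They are 3 of the 85 recombinant lines, and the series holds 96 libraries in all, with 7 of CB4856 and 4 of N2, the parents of the lines. The lines are homozygous mosaics of N2, the standard laboratory strain, and CB4856, a wild strain from Hawaii, made by crossing over several generations before inbreeding. The 3 lines were compared with the 24 other lines of the batches numbered 6 and 9 in the titles. QX501 was in batch 9 with 13 of these, and QX505 and QX518 were in batch 6 with 11. All 27 lines had the same history per the labels: larvae hatched from bleached eggs grew on Escherichia coli HT115 as the control treatment and were collected as L4 larvae, and total RNA was taken from the whole animals. Each line is 1 library from pooled animals of 1 culture, so no line has a replicate and the lines are the units of every test. The p-values measure the spread between lines of mixed genotype, and QX501 alone stands for batch 9 among the 3.

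C. elegans cultures consist almost wholly of self-fertile hermaphrodites with paired X chromosomes. Males carry a single X and arise rarely, when an X is lost at meiosis, or by mating. A mated male leaves a gelatinous plug on the vulva of its partner, and PLG-1, a mucin-like protein made in the male somatic gonad, is its main component. In N2 a retrotransposon, Cer1, interrupts plg-1, and males of N2 leave no plug, while CB4856 carries an intact copy. Hermaphrodites make sperm as L4 larvae before they turn to oocytes, so sperm genes are shared by both sexes. The male genital tract and the mating neurons are found in males alone, though several genes listed for them are also active in hermaphrodite cells. In RNA from a whole culture, more male animals and more of such RNA per animal cannot be told apart.

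Depth was even, with 22069702 to 24001627 read counts in genes per library. Levels are given as read counts or as CPM, counts scaled to the total gene counts of the library. Yolk genes, which adult hermaphrodites express in the intestine, summed to 36880, 36970 and 29030 CPM in QX501, QX505 and QX518, against 21750 to 52200 CPM in the 24 other lines. Eggshell and oocyte genes summed to 18200, 16600 and 17390 CPM in the 3 lines and 11660 to 22440 CPM in the other 24. Cultures labelled L4 held much RNA of genes known from adult hermaphrodites, and the 3 lines lay inside the range of the 24 others on both sums. Within batch 6 alone, QX518 lay below the lowest yolk sum of the other lines, 30480 CPM.

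plg-1 (WBGene00004041, chromosome III, 8852261 to 8853006, assembly WBcel235) had 1688 counts in QX501, 702 in QX505 and 125 in QX518. In the 24 other lines it had a lowest count of 2, a median of 9.5 and a highest of 40. The groups did not overlap, which is what the choice of lines fixed. The lowest of the 3 lines stood at 125 counts, and the highest 2 of all 82 other lines stood at 70, in QX576, and 40, in QX503. The 4 N2 libraries had 7 to 12 counts. CB4856 had 192 counts in batch 6 and 0 to 7 in its other 6 libraries. A total of 5 libraries had 0 counts, which at this depth allows up to 3.

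**Figure D1:**
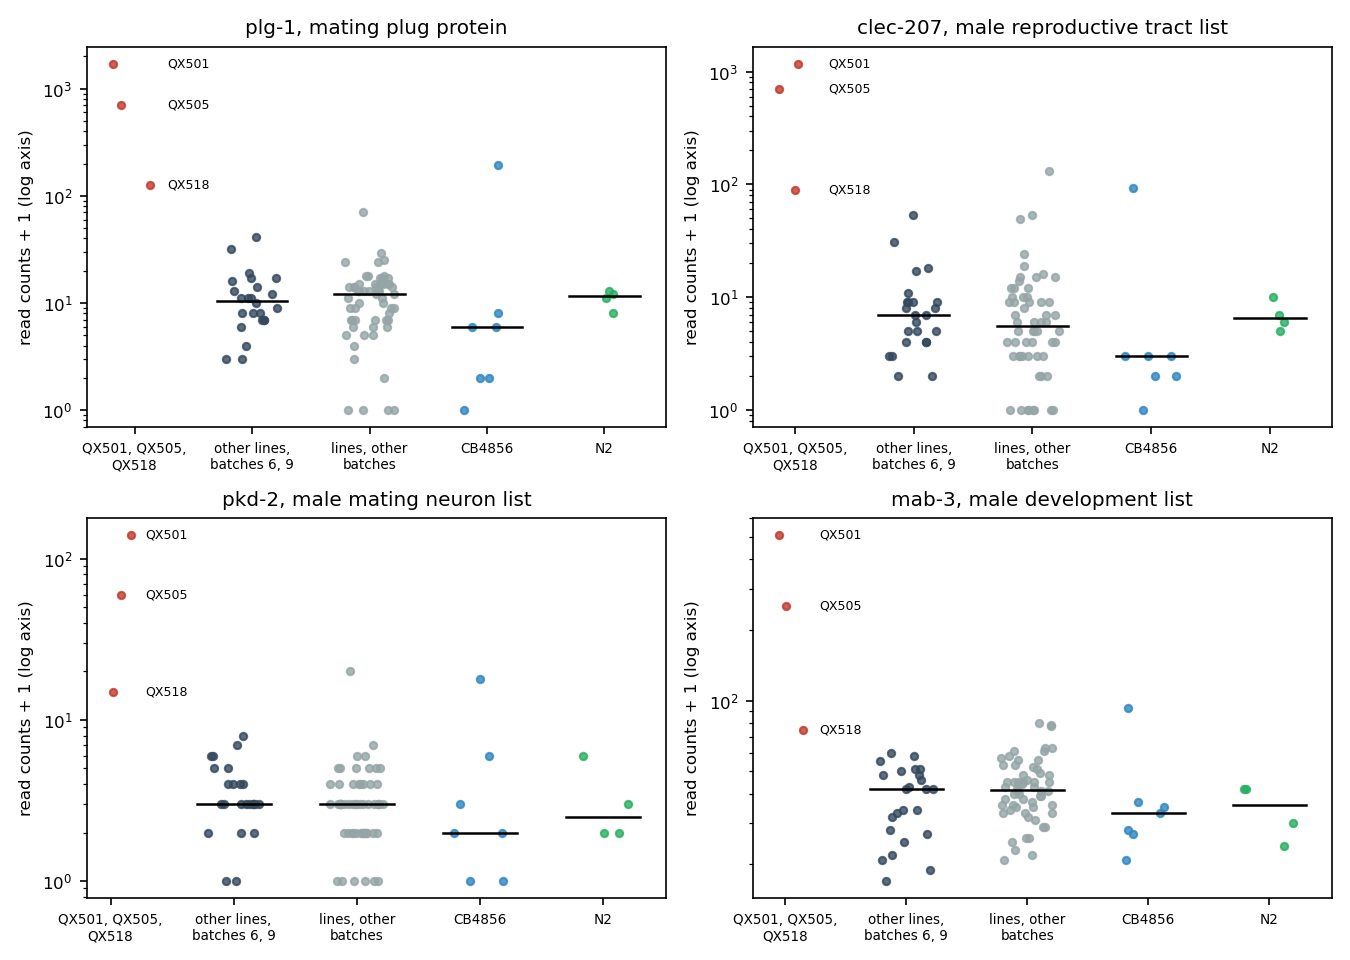
Read counts plus 1 (log axis) of plg-1, clec-207, pkd-2 and mab-3 in all 96 libraries, each point a library, with bars at the median of groups other than the 3 lines. QX501, QX505 and QX518 stand in that order from high to low in each panel, from 1688 to 125 counts for plg-1, above all 24 other lines of batches 6 and 9. clec-207, pkd-2 and mab-3 are among the 7 of 26 listed male genes for which this held. For 18 others not shown, such as swm-1, nlp-8 and xol-1, the ranges overlapped.

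Many genes were higher in the 3 lines, and edgeR called almost none lower. Of 16034 genes tested beside plg-1, 806 rose (5.03%) and 1 fell (0.00624%) in edgeR's quasi-likelihood test with batch as a term, two-sided, at a Benjamini-Hochberg adjusted p under 0.05. The median log2 fold change of all genes tested was 0.00. QX501 carried much of this count. It lay above all 13 other lines of its batch at 806 of the 806 genes, while QX505 lay above the 11 other lines of its batch at 357 and QX518 at 190. Over all genes tested the shares above the batch were 14.4% for QX501, 9.35% for QX505 and 6.14% for QX518. Without QX501, 153 genes rose, 149 of them among the 806. DESeq2, with all 3 lines, called 784 genes higher and 67 lower, 57 of the 67 in the first 4 Mb of chromosome II.

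A stricter set holds the 182 genes (1.14% of those tested) that rose and for which each of the 3 lines lay above every other line of its own batch. Without the test, 198 genes (1.23%) had all 3 lines above their batches, against 3 genes (0.0187%) with all 3 below. Of the 182 genes, 140 still rose without QX501, 167 without QX505 and 179 without QX518, and 153 still rose with the first principal component of the 85 lines as a covariate. That component separates the lines along 21.5% of their variance, and the 3 lines stood at -22.1, -39 and -27 on it, against -22.7 to 55.1 in the other lines of batch 9 and -56.3 to 49.1 in those of batch 6. Log2 fold changes in the set ran from 0.80 to 6.55 with a median of 5.12, and 119 of the 182 were over 4. In the 24 other lines, 69 to 153 of the 182 genes, with a median of 98, had more than 3 counts, and 15 of the 182 had a median of 0 counts.

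**Figure D2:**
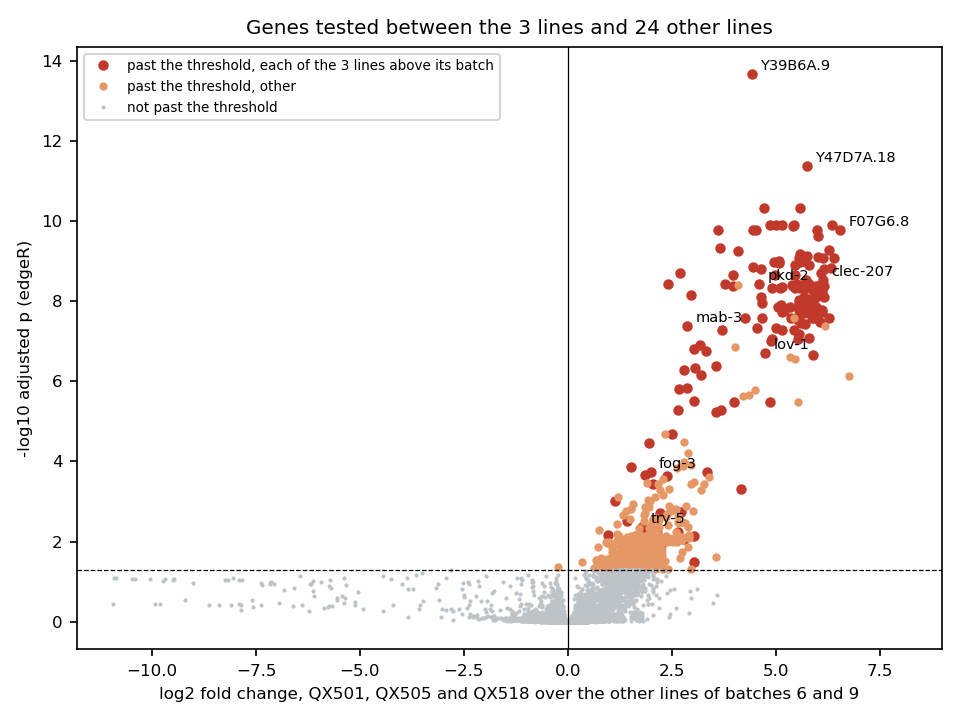
Log2 fold change, QX501, QX505 and QX518 over the 24 other lines of batches 6 and 9, against the -log10 adjusted p of edgeR, each point 1 of 16034 genes and the dashed line the 0.05 threshold. The 182 genes with each of the 3 lines above its batch (red) reach a log2 fold change of 6.55 on the right, and 1 gene past the threshold lies left of 0.

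The gene with the highest log2 fold change in the set was F07G6.8 (WBGene00017227, chromosome X, 1720042 to 1720459). It had 89, 29 and 10 counts in QX501, QX505 and QX518, against 0 to 2 with a median of 0 in the other 24. This is 6.55 ± 0.48 (fit and SE) on the log2 scale, with an adjusted p = 1.7e-10 in edgeR. With at most 2 counts in any other line, F07G6.8 entered the test through the 3 lines alone, which limits its p-value and rank. ins-31 (WBGene00002114, chromosome II, 3127041 to 3127831), which encodes an insulin-like peptide, had 1775, 671 and 107 counts in the 3 lines and 0 to 54, with a median of 6.5, in the others. Its log2 fold change was 6.15 ± 0.55, adjusted p = 4.09e-09 in edgeR. The order of the 3 lines was the same for both genes. No other line of their batches reached the lowest of them, which is largely what the choice of the set fixed.

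F59B2.12 (WBGene00010314, chromosome III, 9017601 to 9020965), on the same chromosome as plg-1 and overlapping F59B2.17 in the annotation, had the most counts of the 15 genes with the highest fold changes. It had 3628, 1192 and 291 counts in QX501, QX505 and QX518 and 3 to 93, with a median of 19, in the other lines, a log2 fold change of 6.15 ± 0.50, adjusted p = 8.17e-10 in edgeR. The remaining 12 of the 15 genes with the highest fold changes were W02D7.12, F54D12.9, T22G5.1, Y51A2D.1, M176.10, Y110A2AL.6, M151.10, clec-207, C16C8.19, K12H6.4, T10B10.9 and F26D10.13. Their log2 fold changes lay between 6.08 and 6.39, and most have no name beyond their clone. W02D7.12, Y51A2D.1 and Y110A2AL.6 had at most 7 counts in any other line, so they too entered the test through the 3 lines alone.

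By p-value the first gene was Y39B6A.9, and the next 4 were Y47D7A.18, clec-161, hpo-2 and F56C3.8. Y39B6A.9 (WBGene00012671, chromosome V, 19136506 to 19139094) had 383, 528 and 232 counts in QX501, QX505 and QX518, against 9 to 30 with a median of 15.5 in the others, a log2 fold change of 4.42 ± 0.20, adjusted p = 2.2e-14 in edgeR. Y47D7A.18 had 710, 479 and 115 counts in the 3 lines and 2 to 20 in the others, with 5.74 ± 0.34 on the log2 scale. F56C3.8 had 776, 253 and 83 counts against 2 to 25, and hpo-2 had 561, 195 and 42 against 4 to 35. clec-161, a C-type lectin gene that shares its place with 4 other annotated genes, had 522, 164 and 60 counts in the 3 lines and 0 to 9 in the other 24. With so few counts in the other lines, clec-161 entered the test through the 3 lines alone, which limits its p-value and rank. In none of these 5 genes did the groups overlap, but they were chosen for the smallest p-values, so this adds no separate result.

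Of 4 listed genes of the male genital tract, 3 rose, against 5.03% of all genes tested. The median log2 fold change was 3.96 over the list, against 0.00 over all genes. clec-207 (WBGene00018096, chromosome V, 2096072 to 2097272), a C-type lectin gene, had 1159, 698 and 89 counts in QX501, QX505 and QX518 and 1 to 53, with a median of 6, in the other lines. It rose by 6.13 ± 0.54 on the log2 scale, adjusted p = 3.04e-09 in edgeR. Its neighbour clec-208 had 2660, 1239 and 70 counts in the 3 lines and 1 to 96, with a median of 12, in the others, a log2 fold change of 6.18 ± 0.64. Here QX518 lay inside the range of the others, so clec-208 is not among the 182. The lectin pair lies within one stretch of chromosome V, and reads that map to several places were not counted, so a split of reads between similar copies cannot be told from these counts.

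try-5, the seminal fluid protease that activates sperm, rose, with 38, 10 and 9 counts in QX501, QX505 and QX518, against 1 to 13 with a median of 5 in the other lines. Its log2 fold change was 1.79 ± 0.38, adjusted p = 0.00441 in edgeR, and 0.999 without QX501. swm-1, a protease inhibitor that holds sperm inactive in the male, had 573, 467 and 429 counts in the 3 lines and 229 to 916 in the others, a log2 fold change of 0.01 ± 0.21. All 3 lines lay inside that range.

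The mating neuron list held 14 genes, chiefly of the ciliated sensory neurons with which males detect the partner. Of its 9 members with counts enough for the test, 3 rose, against 5.03% of all genes tested. pkd-2 (WBGene00004035, chromosome IV, 15227814 to 15234993), a polycystin channel subunit, had 139, 59 and 14 counts in QX501, QX505 and QX518 and 0 to 7, with a median of 2, in the others, 4.60 ± 0.41 on the log2 scale, adjusted p = 3.76e-09 in edgeR. lov-1, its polycystin partner in these neurons, had 93, 32 and 10 counts against 0 to 6 with a median of 1, and 4.75 ± 0.53 on the log2 scale, adjusted p = 2.01e-07 in edgeR. Both genes overlap others in the annotation, and the counts do not use strand. With at most 7 and 6 counts in any other line, pkd-2 and lov-1 entered the test through the 3 lines alone, which limits their p-values. The pair kept the order of the 3 lines and did not overlap the other 24.

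cwp-5, a gene named for its coexpression with the polycystins, had 76, 31 and 10 counts in the 3 lines and 0 to 13, with a median of 5, in the others. It rose by 2.79 ± 0.41 on the log2 scale, adjusted p = 3.21e-05 in edgeR, and had an adjusted p of 0.17 without QX501. cil-7, which acts in the release of vesicles from these cilia, had 32, 21 and 9 counts against 6 to 19, 0.93 ± 0.31 on the log2 scale, adjusted p = 0.0818 in edgeR. klp-6, cwp-4, nlp-8, tba-9 and oig-8 had log2 fold changes between 0.15 and 0.50 and did not pass. These genes had medians of 9 to 159 counts in the other 24 lines, while pkd-2 and lov-1 had 2 and 1.

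The 5 members left out for low counts included some that were close to silent in the other lines. cwp-1 had 86, 28 and 7 counts in QX501, QX505 and QX518, against 0 to 2 in the other lines. cwp-2 had 78, 22 and 6 counts against 0 to 4, and trf-1, a TRAF-family signalling adaptor, had 58, 30 and 6 against 0 to 8. In a fit with no filter on low counts, cwp-1 had a log2 fold change of 6.02 ± 0.49, adjusted p = 3.87e-10 in edgeR, and cwp-2 had 5.10 ± 0.60, adjusted p = 2.63e-07 in edgeR. In that fit trf-1 had 3.11 ± 0.49, adjusted p = 4.99e-05 in edgeR. cwp-3 had 12, 2 and 1 counts against 0 to 2, and 3.72 ± 0.65 on the log2 scale in the same fit, adjusted p = 2.81e-04 in edgeR. srj-54, a chemoreceptor gene, was at 0 in all 27 libraries.

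Regulators of male development changed in part. Of 8 listed genes 6 were tested and 2 rose, against 5.03% of all genes tested. mab-3 (WBGene00003100, chromosome II, 9732137 to 9738035), a transcription factor of the doublesex family that shapes male tail and nerve cells and represses yolk genes in the male intestine, had 506, 253 and 74 counts in QX501, QX505 and QX518. The other lines had 16 to 59 counts with a median of 41, and the log2 fold change was 2.87 ± 0.30, adjusted p = 4.14e-08 in edgeR. The groups did not overlap. her-1, the secreted signal that sets male fate, had 37, 29 and 7 counts in the 3 lines and 2 to 18, with a median of 9, in the others. It rose by 1.32 ± 0.37 on the log2 scale, adjusted p = 0.0359 in edgeR, and 0.999 without QX501.

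xol-1, the switch gene that acts in male embryos, had 31, 18 and 20 counts in the 3 lines and 10 to 52 in the others, a log2 fold change of 0.08 ± 0.30. ram-5, fkh-6 and mab-9 had log2 fold changes of 0.47, 0.13 and 0.27 and did not pass. dmd-3, a second doublesex-like factor of the male tail tip, was left out for low counts, with 17, 9 and 6 counts in QX501, QX505 and QX518, against 0 to 4 with a median of 0. With no filter on low counts, dmd-3 had a log2 fold change of 3.91 ± 0.64, adjusted p = 9.11e-05 in edgeR. mab-23, another doublesex-like factor of male development, was also left out, with 12, 13 and 2 counts in the 3 lines and 0 to 7, with a median of 3, in the others. In the fit with no filter its log2 fold change was 1.62 ± 0.59, adjusted p = 0.148 in edgeR. Over the 3 male lists together, 8 of 19 tested genes rose and none fell, with a median log2 fold change of 0.50, against 5.03% higher over all genes tested. Of the 8, 5 had each line above its batch, against 1.14% of all genes tested. The 11 that did not pass had medians of 9 to 474.5 counts in the other lines. A gene can enter the test through the high lines alone, so these counts describe the lists and no more.

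Summed over the list, the male tract genes reached 189.5, 103 and 25.8 CPM in QX501, QX505 and QX518, against 10.2 to 41.4 CPM in the other lines. The neuron list reached 40.3, 28.8 and 21.6 CPM, against 12.1 to 28.8 CPM, and the development list 29.2, 19.1 and 12.2 CPM, against 5.23 to 12.4 CPM. QX501 lay above all 13 other lines of its batch on each of these sums. QX518 lay inside the range of its batch on the tract sum, whose other lines reached 28.3 CPM, and just above its batch on the other lists, where they reached 20.8 and 10.6 CPM. Genes that did not pass the test weigh heavily in these sums. In QX518 swm-1 made up 18.6 CPM of the tract sum, and it averaged 21.6 CPM in the other lines. Of the neuron sum of QX518, nlp-8 and tba-9 made up 7.57 and 7.88 CPM, and of its development sum fkh-6 made up 5.37 CPM.

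**Figure D3:**
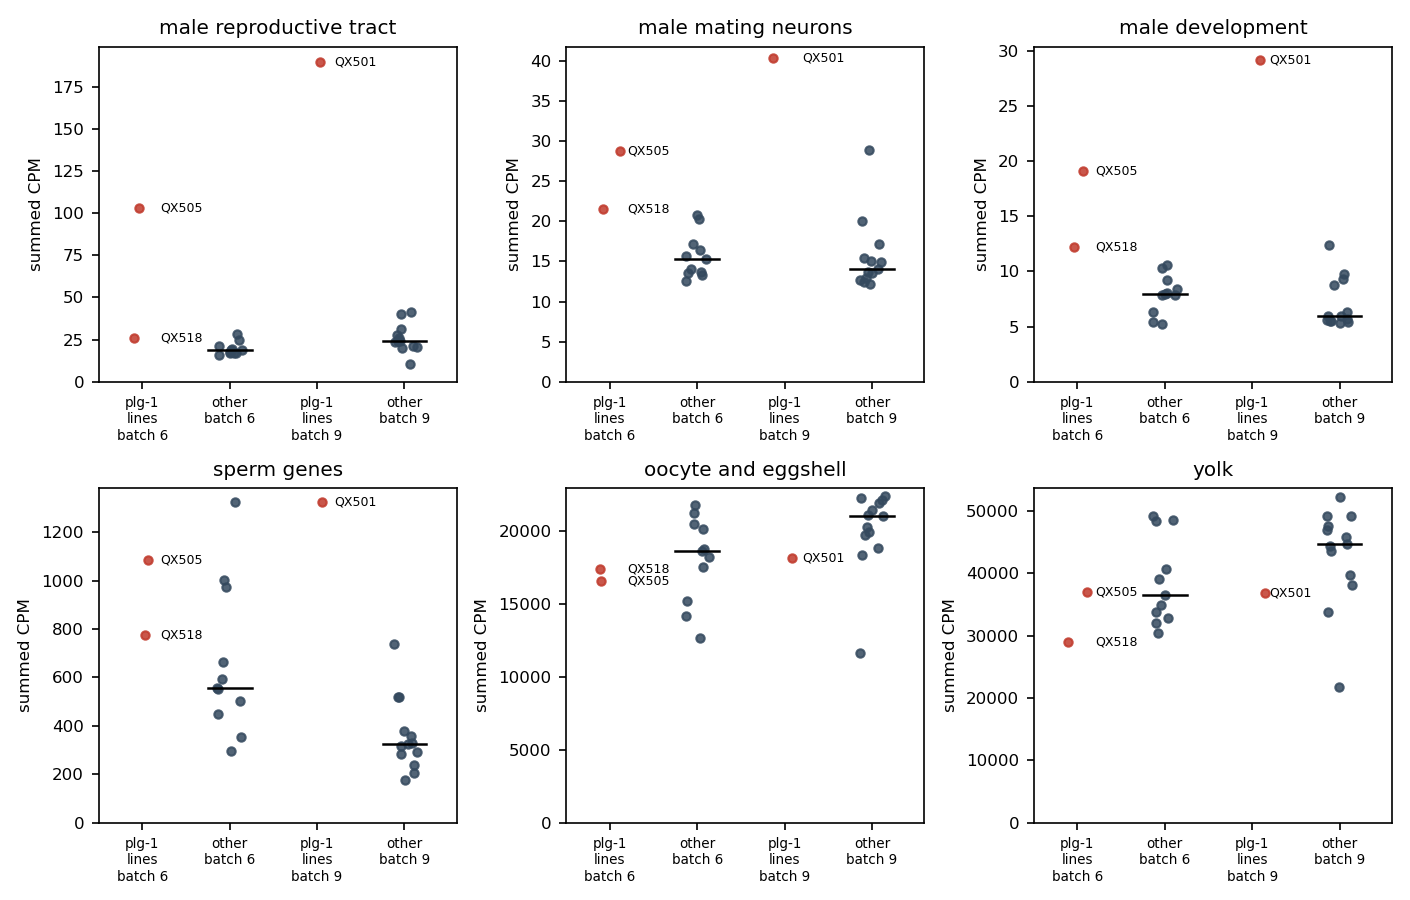
Summed CPM of 6 gene lists in the 27 lines by batch, each point a line, with the lines of high plg-1 (red) left of the other lines (dark) of their batch and bars at the median of the other lines. QX501 stands above its batch on the male lists and on sperm genes, and the 3 lines lie at or below the batch medians on oocyte and eggshell genes. The male sums include genes that did not pass the test, such as swm-1.

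Sperm genes rose in part, and this rested on QX501. Of 32 sperm genes, 15 rose, against 5.03% of all genes tested, with a median log2 fold change of 1.26 over the list. The 32 genes summed to 1324, 1085 and 776 CPM in QX501, QX505 and QX518. The other lines of batch 9 summed to 178 to 737 CPM and those of batch 6 to 298 to 1325 CPM. QX505 and QX518 thus lay inside the range of their batch. fer-1, a membrane fusion gene of sperm, had 813, 377 and 190 counts in the 3 lines and 25 to 333, with a median of 80.5, in the others, 2.29 ± 0.39 on the log2 scale, adjusted p = 2.82e-04 in edgeR. Without QX501 none of the 32 rose in edgeR, with 2 at an unadjusted p under 0.05, against 28 with all 3 lines. Over all genes tested, 335 were higher at that threshold without QX501, against 1884 of 16034 with all 3 lines. DESeq2 called 13 of the 32, and in edgeR with the first principal component as a covariate 2 rose.

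fog-3, which commits germ cells to the sperm fate, was the only sperm gene with each line above its batch. It had 259, 135 and 62 counts in QX501, QX505 and QX518, against 8 to 59 with a median of 38 in the other lines, 1.99 ± 0.33 on the log2 scale, adjusted p = 1.87e-04 in edgeR, and 0.533 without QX501. Of 28 tested major sperm protein genes none passed in edgeR, with a median log2 fold change of 0.93. At an unadjusted p under 0.05, 21 of the 28 were higher and none lower, against 1884 higher of 16034 genes tested. DESeq2 called 1 of the 28, msp-142. Their sum was 1677, 1483 and 1142 CPM in the 3 lines and 231 to 1631 CPM in the others.

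Genes of hermaphrodite reproduction did not pass the test in edgeR. None of 22 oocyte and eggshell genes and none of 6 yolk genes was called, with median log2 fold changes of -0.15 and -0.34. rme-2, the yolk receptor of oocytes, had 17019, 14573 and 15567 counts in QX501, QX505 and QX518 and 9017 to 21552 in the others. vit-2, a yolk protein gene, had 294608, 302581 and 231542 counts in the 3 lines and 150425 to 406832 in the others. The 3 lines lay inside the range of the others for both genes. At an unadjusted p under 0.05, 0 of the oocyte genes and 1 yolk gene, vit-3, were lower, and DESeq2 called that gene as well. vit-3 had 5492, 4553 and 3870 counts in the 3 lines and 3799 to 65691 in the others, with 3068 to 15502 in CB4856 and 37105 to 51680 in N2.

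Stage markers did not pass either. None of 16 moult genes and none of 6 adult cuticle genes was called by edgeR or DESeq2, or had an unadjusted p under 0.05, and their median log2 fold changes were 0.02 and -0.01. None of 78 genes of the cytosolic ribosome was called by either tool, with 5 lower at an unadjusted p under 0.05 and a median of -0.15. Over all genes, unadjusted p-values were under 0.05 for 2092 (13%), and 1.3% of all genes tested were lower in the 3 lines at that threshold.

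Members of several protein families were among the 182, a grouping made after the values were seen and so without a test. Over all genes tested 5.03% rose and 1.14% are in the set. Of 155 tested genes of the C-type lectin family (clec), 34 rose and 25 of these are in the set. Of 22 tested fipr genes, named for their likeness to fungus-induced peptides, 7 rose, all with each line above its batch. Among 14 trypsin-like protease genes (try), 6 rose. try-8 had 1309, 488 and 92 counts in QX501, QX505 and QX518 and 1 to 54 in the others, a log2 fold change of 5.59 ± 0.51, and it overlaps try-11. Among 10 tested scl genes, of the SCP and TAPS secreted protein family, 5 rose, and scl-7 had 572, 342 and 94 counts in the 3 lines against 0 to 30. Of 23 neprilysin-like peptidase genes (nep), 8 rose and only nep-25 had each line above its batch.

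The annotated span of the 182 genes had a median of 1076 bases, against 2317 for all genes tested. Pseudogenes made up 14 of the 182 (7.69%), against 3.86% of all genes tested, and 166 were protein-coding. For 53 of the 182, another gene of the set lay within 10 kb, a count with no like figure for other sets of this size. fipr-18, fipr-19 and fipr-20 lie between 7458815 and 7462395 on chromosome III, and C16C8.19, C16C8.7 and C16C8.9 between 3458487 and 3463197 on chromosome II. Where neighbours are near-identical their counts are uncertain, since reads with several places in the genome were dropped.

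The X chromosome held few of the genes that rose. On X, 27 of 2228 tested genes (1.21%) rose, against 779 of 13776 (5.65%) on the autosomes. Of the 182 genes, 18 lay on X, 0.808% of its tested genes, and 164 on autosomes, 1.19%. Chromosome II held 47 of the 182, 1.65% of its tested genes, against 0.949 to 1.19% on each other autosome. Of all genes that rose, the highest share was on chromosome IV, 7.11%, against 5.99% on II. Near plg-1 itself the share was close to that of the whole genome: 21 of 452 genes within 1 Mb rose, 4.65% (exact 95% binomial interval 2.90 to 7.01, counting error only). Within 0.5 Mb it was 3.57%, and within 2 Mb 5.96%.

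The amounts in the 3 lines were compared gene by gene. For each gene the level above the median of the other lines of its batch was set against that of QX501. QX505 reached a median of 40.3% of the QX501 excess over the 182 genes, with quartiles of 32.1 and 52.8%. QX518 reached 10.3%, with quartiles of 6.78 and 18.2%, and genes too low in QX518 to clear its batch are left out of this. plg-1, which is not among the 182, had 41% in QX505 and 6.88% in QX518. clec-207 had 59.7% and 7.26%, pkd-2 41.5% and 8.88%, lov-1 33.6% and 9.93%, and mab-3 43.6% and 6.32%. try-5 had 17.5% and 14.9%. Of these genes pkd-2, lov-1 and mab-3 lay between the quartiles of QX505, with clec-207 above them and try-5 below.

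The order QX501 over QX505 over QX518 held for 159 of the 182 genes. QX505 was highest for 13 genes and QX518 for 2. Y39B6A.9, with 137.5% of the QX501 excess in QX505 and 58.5% in QX518, was one such exception. Y47D7A.19, with 15, 51 and 22 counts in QX501, QX505 and QX518 against 0 to 3 in the others, and fipr-27, with 10, 26 and 10 counts against 0 to 1, were others. cut-3, a cuticlin gene, was highest in QX518, with 14, 12 and 27 counts against 0 to 8.

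**Figure D4:**
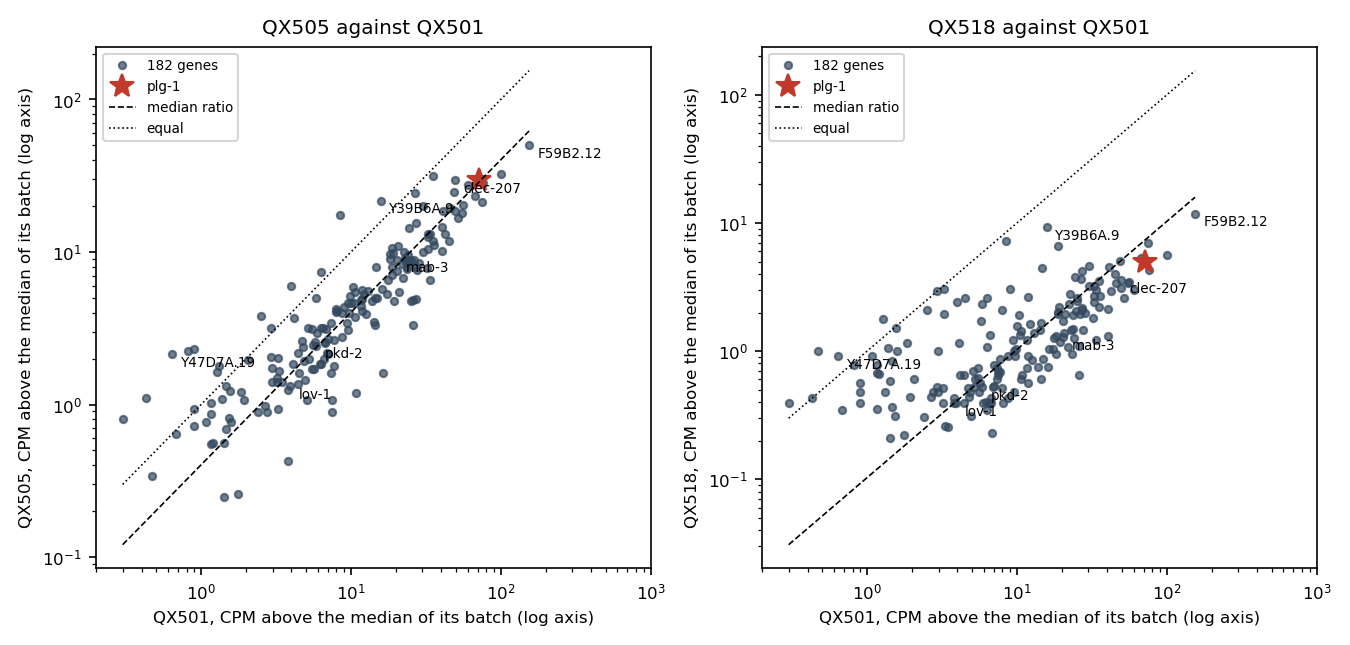
CPM above the median of the other lines of the batch (log axes) in QX505 (left) and QX518 (right) against QX501, each point 1 of the 182 genes and the star plg-1, with dashed lines at the median ratios of 40.3% and 10.3% and dotted lines at equal levels. plg-1 lies close to the dashed line in QX505 and below it in QX518.

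No other line reached the level of the 3 lines over the whole set, but QX540 came close to QX518. The 182 genes summed to 3037, 1267 and 387 CPM in QX501, QX505 and QX518, against 62.8 to 159 CPM with a median of 85.9 in the 24 other lines. These sums are a description, since the genes were chosen on these lines. QX540, of batch 4, which had no part in that choice, summed to 350.2 CPM and had more than 3 counts at 174 of the 182 genes, while its plg-1 stood at 24 counts. It had 130 counts of clec-207, 19 of pkd-2, 77 of mab-3 and 10 of cwp-1. QX571, QX586 and QX576 summed to 218, 201 and 179.5 CPM with 23, 16 and 70 counts of plg-1. The lines outside batches 6 and 9 had a median of 84.6 CPM, and N2 lay between 67.0 and 99.2 CPM.

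The CB4856 library of batch 6 also stood apart from its own strain. It summed to 308 CPM over the 182 genes, with 174 of them above 3 counts, against 53.1 to 87.6 CPM in the other 6 CB4856 libraries. It had 192 counts of plg-1, 91 of clec-207, 17 of pkd-2 and 92 of mab-3. The high levels were thus not limited to recombinant lines, and were not shared by all cultures of CB4856.

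**Figure D5:**
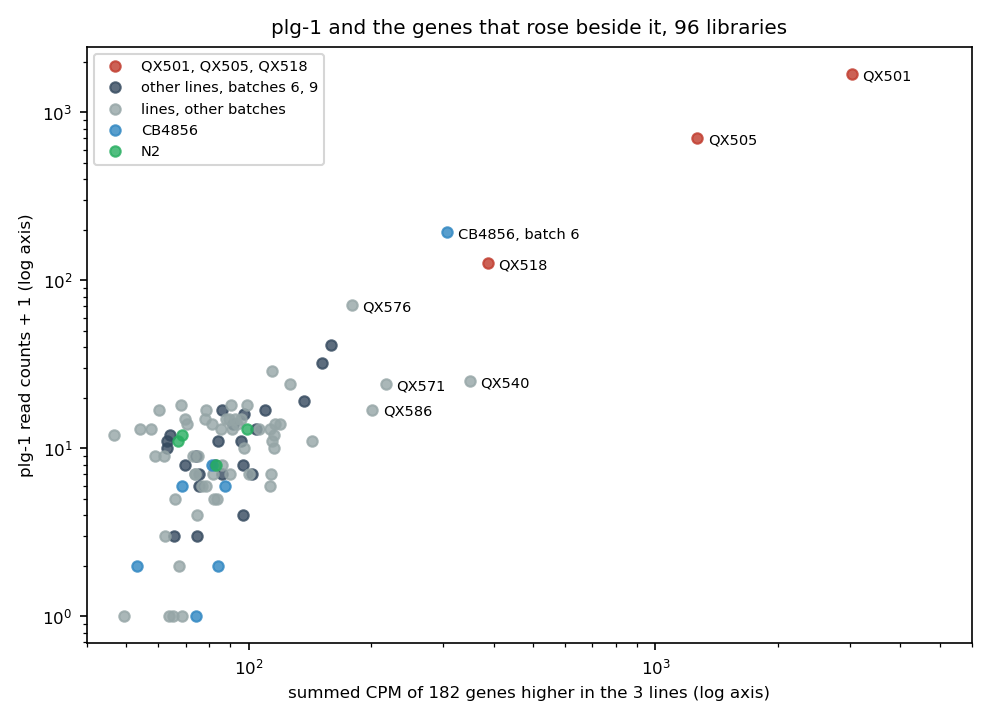
plg-1 read counts plus 1 against the summed CPM of the 182 genes (log axes) in 96 libraries, coloured by group. QX501, QX505, QX518 and the CB4856 library of batch 6 are high on both axes, and QX540 stands at 350.2 CPM with 24 counts of plg-1.

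The genes whose levels followed plg-1 most closely over the 85 lines were members of the same set. Ranked by Spearman's rho over 20509 genes, the first 10 were K12H6.9, fipr-18, F59B2.12, C48B4.12, fipr-28, ins-31, F26D2.16, Y110A2AL.7, clec-137 and K12H6.4. Their rho ran from 0.64 to 0.68 over 85 lines, and from 0.59 to 0.65 over the 82 lines without QX501, QX505 and QX518. All 10 are among the 182. The lines share their depth, and most hold only a few counts of each gene, so these values describe the ranking alone.

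On the question of males in the cultures, the male lists gave mixed values. Of 26 listed genes, 7 had more counts in each of the 3 lines than in any of the 24 others: clec-207, pkd-2, lov-1, cwp-1, cwp-2, mab-3 and dmd-3. For 18 the groups overlapped, and these include genes with few counts in the other lines (cwp-3, trf-1, mab-23, try-5 and cwp-5) and genes with more (swm-1, nlp-8 and xol-1). Among the 18, clec-208, cwp-5, try-5 and her-1 rose in the main fit, and only clec-208 did so without QX501. srj-54 was at 0 in all 27 lines. The share of all genes tested with more counts in each of the 3 lines than in all 24 others was not counted. So 7 of 26 has no background of its own to be set against. A different rule, each line above its own batch in CPM, held for 1.23% of genes tested. Males were not counted in these files, and how many there were was not tested.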

How the data were processed

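RNA sequencing of whole animals gave 1 table per library for 46904 gene identifiers, of which 46817 are in the Ensembl annotation of WBcel235 used for symbols and positions. The authors deposited read counts of genes, whole numbers with no normalisation. Per the submitters' processing notes, FastQC, STAR 2.73a, DESeq2 and the build WBcel235 were used, and the annotation release is not given in the sources used here. Column 2, unstranded, was used, since the strand columns had ratios of 0.957 to 1.04. Reads naming no gene, 7.43% on average, stayed out of library sizes, and multimapping reads (5.24%) are not in gene counts. Intervals and floors cover counting error only.

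Lines were grouped by strain and batch in the labels. The members and gene lists were chosen with earlier results of these data known. edgeR 4.0.16 in R 4.3.3 (filterByExpr, TMM, robust quasi-likelihood test, two-sided) was fitted to 27 lines with batch as a term, that is, as the replicate block, since the titles name shared batches. plg-1 was kept out of counts of genes called, and p-values were Benjamini-Hochberg adjusted over all genes tested. Standard errors were derived from each fold change and its F statistic. CPM was scaled to the total gene counts of a library. The first component was taken from log2 CPM (prior count 2) of the 2000 most variable genes.

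Named genes were the 15 with the highest and up to 5 with the lowest log2 fold change among those past the threshold with all 3 lines outside their batch, the 5 with the smallest p-values, the male lists, and the 10 most like plg-1 by rank. Genes of families and of other lists were named after their values were seen. Of the listed symbols, retr-1 and try-2 were not matched and are not used here, and ssp-9 matched 2 identifiers. The fit was tested on simulated data. Alternatives were RLE size factors, DESeq2 1.42.0, other filters on low counts, no batch term, each line left out, all 82 other lines, each batch alone, the component as a covariate and a fold above 1.5.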

Additional observations from a re-analysis of the deposited data

Results flagged for a closer look

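The CB4856 library of batch 6 stood apart from the other 6 libraries of its strain on 5 measures, with 10 groups of values checked in all. Its gap to the nearest library, as a share of the whole range of 7, was 0.964 for plg-1 (192 counts, against 0 to 7), 0.978 for clec-207 (91 counts, against 0 to 2) and 0.706 for pkd-2 (17 counts, against 0 to 5). It was 0.778 for mab-3 (92 counts, against 20 to 36) and 0.864 for the summed CPM of the 182 genes. The critical value for 7 samples is 0.568, and chance passes it in about 1 in 20 groups. These measures are not independent, since clec-207, pkd-2 and mab-3 are among the 182 genes.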

How the results depend on the processing

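The counts of calls moved with the processing. Main counts were 806 genes higher, 1 lower and 182 with each line above its batch, with 8 genes of the male lists, 15 sperm genes and 0 major sperm protein genes higher. With 1 of the 3 lines left out in turn these were 153 to 1401, 0 to 1, 143 to 521, 5 to 13, 0 to 25 and 0 to 12, lowest without QX501 and highest without QX518, apart from the lower count, which was 1 without QX505. Without the replicate block (no batch term) 309 genes were higher and 0 lower, with 5 sperm genes. Batch 6 alone gave 151 higher, 0 lower, 5 male and 0 sperm genes. Batch 9 alone, where QX501 is assumed to vary like the others, gave 1546 higher, all with QX501 above its batch, 2 lower, 14 male, 24 sperm and 5 major sperm protein genes. Against all 82 other lines, 1260 were higher and 42 lower, with 24 sperm and 7 major sperm protein genes. The component as a covariate left 190 higher and 2 sperm genes, and a fold above 1.5 left 258 higher, 0 lower and 2 sperm genes. A mean of at least 1 CPM, which removes the rarest genes, left 428 higher, 81 above their batch and 3 male genes, and no filter gave 0 lower, 313 above their batch and 13 male genes. DESeq2 gave 67 lower and 1 major sperm protein gene, and RLE size factors 1 of the same list. The causes of the other shifts were not tested.

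Sign changes were seen in genes that did not pass. swm-1 had a log2 fold change of -0.0021 at 1 CPM or more, -0.068 without the block, -0.051 against all 82 lines, -0.050 in batch 9 and -0.15 with the component, and -0.023 to 0.033 with 1 line left out. xol-1 had -0.0062 without the block and -0.0067 in batch 6, and -0.0050 to 0.15 with 1 line left out. In batch 9 nlp-8 had -0.032, tba-9 -0.048, fkh-6 -0.43 and mab-9 -0.12. With the component nlp-8 had -0.091, tba-9 -0.041, oig-8 -0.17, ram-5 -0.16, fkh-6 -0.25 and mab-9 -0.026. With 1 line left out fkh-6 had -0.17 to 0.37. Depth limits the genes near 0 counts, where 3 counts is the floor.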

Other observations

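Genes called lower depended on the fit. edgeR called 1 on chromosome II, mrps-18B, a mitochondrial ribosomal protein gene, with 788, 845 and 840 counts in QX501, QX505 and QX518 and 842 to 1026 in the other 24, a log2 fold change of -0.23 ± 0.07, adjusted p = 0.043. DESeq2 called 67. Of these, 57 lie on chromosome II between 1065365 and 2417989, with adjusted p-values of 0.0524 to 0.172 in edgeR, and at 55 of the 57 every N2 library was above every CB4856 library. Against all 82 other lines edgeR called 42 lower, of which 3 lie in the first 4 Mb of chromosome II. ZC204.12 had 0 counts in each of the 3 lines, against 0 to 753 with a median of 258 in the other 24, while CB4856 had 0 to 4 counts and N2 172 to 377. math-4, a MATH domain gene, had 0 counts in the 3 lines and 0 to 542 in the others. bath-5, a BTB and MATH domain gene, had 12, 18 and 15 counts in the 3 lines and 9 to 529 in the others, with 10 to 29 counts in CB4856 and 459 to 600 in N2. The 3 lines thus all had CB4856-like levels at these genes, as did some of the other lines.

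The ratio of plg-1 to F59B2.12 differed between libraries with at least 50 counts of F59B2.12. plg-1 counts were 46.5, 58.9 and 43% of F59B2.12 counts in QX501, QX505 and QX518, and 59.8% in the CB4856 library of batch 6. In QX540 they were 6.22%, and in QX586 and QX493 19.1 and 18.9%. These low ratios rest on 24, 16 and 10 counts of plg-1 in QX540, QX586 and QX493, and their counting error was not worked out. C06E1.11, 237 kb from plg-1, was the only gene of 709 searched within 1 Mb that had at least 20 counts in a parent and differed over 4-fold between all parental libraries. It had 216 to 250 counts in CB4856 and 26 to 37 in N2. QX501, QX505 and QX518 had 197, 206 and 173 counts of it, nearer CB4856. QX540, QX586 and QX493 had 22, 35 and 27, nearer N2, with QX540 below the N2 range. QX576, QX503, QX520, QX516 and QX555 had 201 to 243 counts of C06E1.11 and plg-1 at 27.5 to 58.8% of F59B2.12. Their plg-1 counts were also low, from 14 in QX555 to 70 in QX576. Whether the allele at plg-1 sets this ratio was not tested.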
